A study of Homo sapiens with 8 samples.

Results

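The genes described here are 10 regulators of chromatin and DNA methylation that were chosen by name, with earlier results of these data known. They are the PRC2 subunits EZH1, EZH2, EED and SUZ12, the demethylases KDM6A and KDM6B, PHF6, the DNA methyltransferases DNMT3A and DNMT3B, and TET2. All 10 were found among the 64252 gene entries of the count tables, each under 1 Ensembl identifier, and all 10 passed the filter on low counts in both cell lines. They were measured by bulk RNA sequencing in 2 human T-ALL cell lines, 6T-CEM, which derives from CCRF-CEM cells, and J.gamma1, a derivative of Jurkat cells. Cells of each line carried a lentiviral control shRNA (sh-NC) or a lentiviral shRNA against LDB1 (sh-LDB1), and both groups were selected with puromycin. LDB1 is an adaptor protein that joins transcription factor complexes on enhancers and promoters. Each of the 4 groups had 2 libraries, 8 in all. The sources used here do not name which of the study's 3 LDB1 shRNAs the sequenced cells carried, nor say whether the 2 libraries of a group came from separate cultures. The p-values therefore measure the spread between these libraries, which may be technical.

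Polycomb repressive complex 2 (PRC2) methylates histone H3 at lysine 27, a mark of silenced genes. EZH2 or its paralog EZH1 is the catalytic subunit, and EED and SUZ12 are needed for activity and stability of the complex. KDM6A and KDM6B remove this methylation, DNMT3A and DNMT3B place methyl groups on unmethylated DNA, and TET2 oxidises them, a step towards their removal. PHF6 is a chromatin-associated zinc finger protein. Inactivating mutations of PHF6, EZH2, EED, SUZ12, KDM6A and DNMT3A are known in T-ALL, and TET2 and DNMT3A are known for their mutations in myeloid and other blood malignancies.

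KDM6B rose with sh-LDB1 in both cell lines, and DNMT3A and DNMT3B fell in both. KDM6B was 1.76-fold higher in 6T-CEM and 1.71-fold higher in J.gamma1. DNMT3A fell to 0.74 of its control level in 6T-CEM and to 0.836 in J.gamma1, and DNMT3B to 0.565 and 0.846. In J.gamma1, PHF6 fell to 0.825, EED to 0.852 and SUZ12 to 0.905 of their control levels. DESeq2 did not call the J.gamma1 falls of DNMT3B, EED and SUZ12. EZH1, EZH2, KDM6A and TET2 did not pass the test in either line.

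Of the 10 genes, 1 was called higher and 2 lower in 6T-CEM at an edgeR adjusted p under 0.05, where 15.1% of the 16059 genes tested were called higher and 16.2% lower. In J.gamma1, 1 was called higher and 5 lower, where 25.0% of the 17215 genes tested were called higher and 26.5% lower. In both lines together, 1 gene was called higher and 2 lower, against 9.11% and 10.5% of the 14902 genes tested in both. The 2 libraries of each group did not overlap for 7 of the 10 genes in 6T-CEM and for 9 of 10 in J.gamma1, against 65.1% and 75.8% of all genes tested. Called with a log2 fold change beyond 1 were 0 of the 10, against 5.13% and 13.9% of all genes tested. The values of the 10 ran from -0.82 to 0.82. In opposite directions in the 2 lines edgeR called 0, against 3.34%, also 0 at an unadjusted p under 0.05 and 0 in DESeq2. The median log2 fold change of the 10 genes was 0.08 in 6T-CEM, beside 0.0027 over all genes tested, and -0.13 in J.gamma1, beside -0.00025. The 6T-CEM counts lay near the shares of all genes. The 5 of 10 called lower in J.gamma1 lay above theirs, and DESeq2 called 2 of these 5. The median standard error of the log2 fold change there was 0.065 for the 10 genes, against 0.12 over all genes tested. Smaller changes could thus be called for the 10 than for a gene of median standard error. The falls of these 5 were smaller than the median absolute log2 fold change of all genes tested in J.gamma1, 0.40. Of those genes, 37.8% changed less than PHF6, 35.3% less than DNMT3A and 33.2% less than DNMT3B. For EED and SUZ12 these shares were 31.9% and 20.6%. In 6T-CEM, 69.7% of genes tested changed less than DNMT3A and 88.2% less than DNMT3B. The genes behind these shares were not matched to the 10 for level. In 6T-CEM too the median standard error was smaller for the 10 genes, 0.071 against 0.13. No test of the 10 as a list was made.

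**Figure D1:**
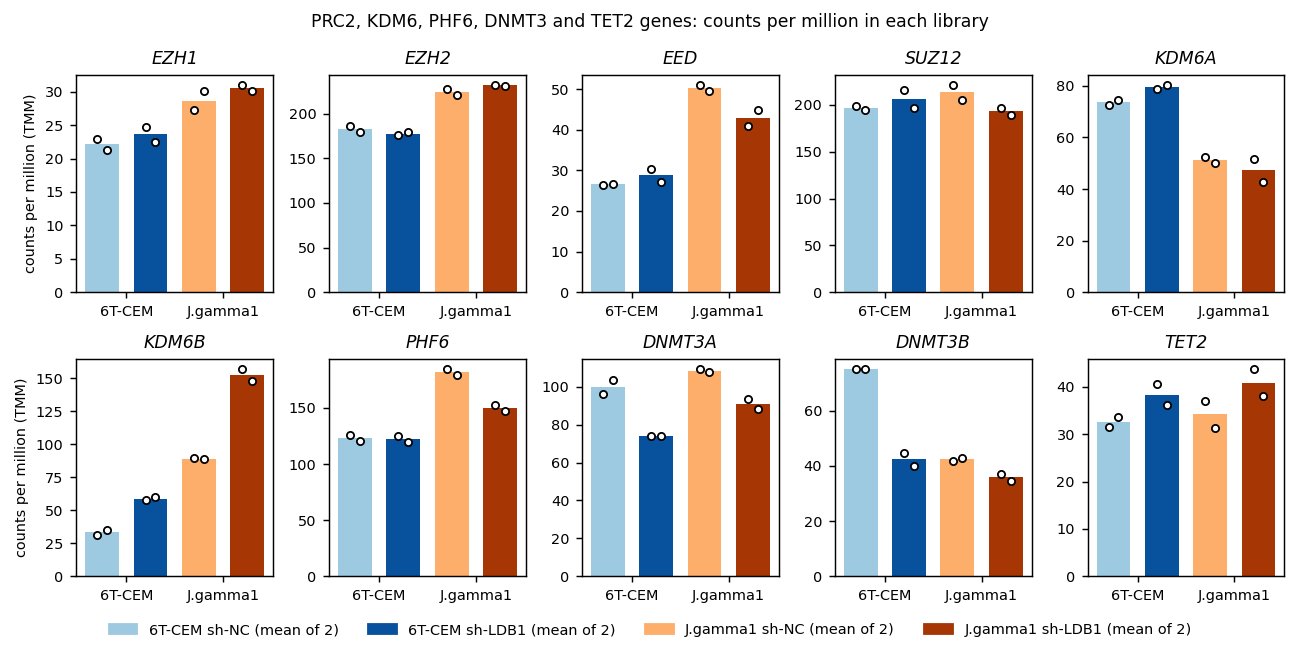
CPM of the 10 genes (vertical axes; counts scaled to a common library size with TMM factors within each cell line) in the 4 groups. Points are the 2 libraries of a group and bars their mean. KDM6B was between 31.4 and 35.4 in 6T-CEM controls and between 57.7 and 59.9 with sh-LDB1, while EZH2 lay between 176 and 187 in all 4 libraries of that line.

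LDB1 itself was measured first, as a check of the labels. Its counts were 2777 and 2996 in the controls of 6T-CEM against 1078 and 1000 under knockdown, and 1909 and 1854 in the controls of J.gamma1 against 929 and 906. Its log2 fold change was -1.60 ± 0.07 (SE) in 6T-CEM and -0.89 ± 0.08 in J.gamma1, and the difference between these changes was 0.70 (edgeR adjusted p = 0.000237). On a scale common to all 8 libraries, the LDB1 level left under sh-LDB1 was 11.9 and 11.3 RPKM (reads per kilobase at a common library size) for 6T-CEM, beside 10.7 and 9.93 for J.gamma1. Library totals lay between 26160492 and 30604977 counts, and each of the 10 genes had between 601 and 6882 counts in every library.

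Of 10 markers of T-ALL lines, 4 were called higher and 1 lower with sh-LDB1 in 6T-CEM, and 6 higher and 2 lower in J.gamma1. Their summed level went from 1614 to 1664 CPM in the 6T-CEM controls to 2007 to 2042 with sh-LDB1, and from 2200 to 2245 in the J.gamma1 controls to 2758 to 2838. CD3E, a chain of the T cell receptor complex, had group means of 390.1 and 605 CPM in 6T-CEM and 485 and 933 in J.gamma1, whereas CD2 was low, at 0.38 in both 6T-CEM groups and between 4.69 and 6.41 in J.gamma1. The marker called lower in 6T-CEM was CD5, with means of 80.7 and 55.5 CPM. Those called lower in J.gamma1 were CD3D, with 381 and 329, and LCK, with 796 and 611.5. CD3D was called higher in 6T-CEM, with 393.5 and 503. Of 12 markers of other cell types, 8 passed the filter on low counts for 6T-CEM and 5 for J.gamma1, and each line had 3 called higher and 1 lower. They summed to between 84.7 and 85.1 CPM in the 6T-CEM controls and between 88.8 and 95.8 with sh-LDB1, and in J.gamma1 to between 192.5 and 194 in the controls and between 176 and 184 with sh-LDB1. Most of the sum was CD79A, with means of 22.2 and 37.1 in 6T-CEM and 69.2 and 79.5 in J.gamma1, and PECAM1, with 61.1 and 51.2, and 119 and 89.1. COL1A1 had means of 0.13 and 0.82 in 6T-CEM and 4.44 and 9.59 in J.gamma1, and the red cell marker HBB was at 0 in all libraries. The part of these markers in the results was not tested. Of 18 proliferation genes, 6 were called higher and 7 lower in 6T-CEM, and 1 higher and 14 lower in J.gamma1. MCM2 and PCNA, which act at the replication fork, fell by 0.49 and 0.40 on the log2 scale in 6T-CEM and by 0.46 and 0.55 in J.gamma1, E2F1 by 0.29 and 1.13, and the mitotic cyclin CCNB1 rose by 0.56 and 0.50. In bulk RNA, fewer cells of a type or cell cycle phase and less RNA per cell cannot be told apart.

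The levels of the 10 genes in control cells were compared per length of the canonical transcript, as RPKM. In 6T-CEM sh-NC, EZH2 was highest at 72.5 ± 2.17 (SD, n = 2), followed by SUZ12 at 46.0 ± 0.842 and PHF6 at 29.2 ± 0.862. DNMT3B (18.2), EED (13.4), KDM6A (12.7) and DNMT3A (11.2) came next. KDM6B at 5.21 ± 0.434, EZH1 at 5.02 ± 0.285 and TET2 at 3.57 ± 0.162 were lowest. The libraries of neighbours in this order overlapped only for KDM6B and EZH1.

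In J.gamma1 sh-NC the first 3 genes kept these places, with EZH2 at 80.6 ± 1.54, SUZ12 at 45.3 ± 2.22 and PHF6 at 39.2 ± 0.728 RPKM. EED (23.0), KDM6B (12.6), DNMT3A (11.0), DNMT3B (9.31), KDM6A (8.04), EZH1 (5.91) and TET2 (3.41) followed, and no neighbours overlapped. The order depends on the length used. With the union of all annotated exons, which is 10774 bases for EZH2 against 2654 in its canonical transcript and 27742 for KDM6A against 6094, SUZ12 came before EZH2 in both lines, and KDM6A was the last in J.gamma1. An RPKM value here is therefore a level for a chosen transcript.

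**Figure D2:**
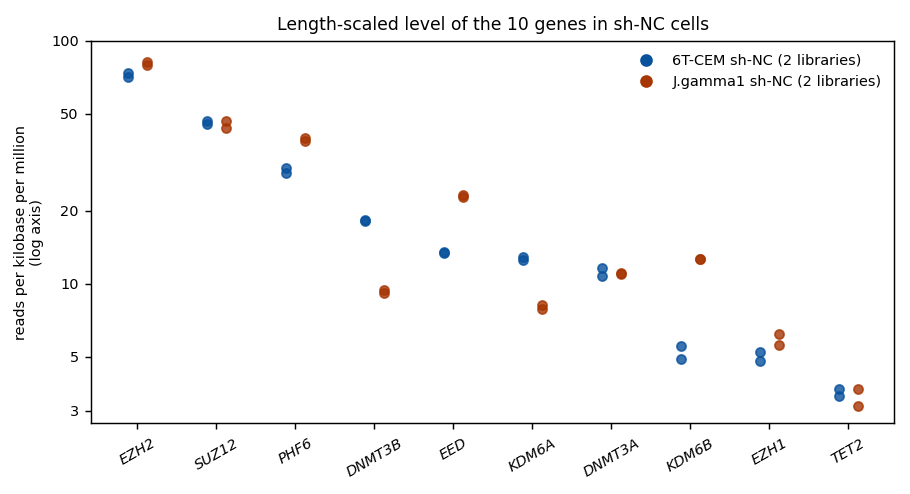
Level of the 10 genes in sh-NC cells as RPKM over the canonical transcript (vertical, log axis), with 1 point for each of the 2 libraries of 6T-CEM and J.gamma1. EZH2 was highest and TET2 lowest in both lines. EED, PHF6 and KDM6B were higher in J.gamma1, and DNMT3B and KDM6A were higher in 6T-CEM.

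Between the lines, 5 of the 10 genes were called higher in J.gamma1 sh-NC and 2 higher in 6T-CEM sh-NC, where 34.6% and 31.1% of 18552 genes were called. KDM6B was 2.42-fold higher in J.gamma1 (log2 difference 1.28 ± 0.07 SE, edgeR adjusted p = 6.47e-09), EED 1.72-fold (3.92e-06 by the same test) and PHF6 1.34-fold (1.14e-05). DNMT3B in J.gamma1 was at 0.512 of its level in 6T-CEM (2.31e-07), and KDM6A at 0.634 (1.35e-05). EZH2 was 1.11-fold higher in J.gamma1 (0.00928), but its adjusted p was 0.0935 without 6T-CEM sh-NC replicate 2 and 0.0633 without J.gamma1 sh-NC replicate 1. EZH1 was 1.18-fold higher (0.0445) and lost this call in DESeq2 (0.0906), without the filter on low counts (0.0552), and when any 1 library other than 6T-CEM sh-LDB1 replicate 1 and J.gamma1 sh-NC replicate 1 was left out (0.0512 to 0.248). SUZ12, DNMT3A and TET2 were not called, and the 95% intervals of their log2 differences were -0.15 to 0.10, -0.14 to 0.10 and -0.29 to 0.16. With 1 line of each kind, these values compare 2 cell lines and the 2 tables that hold them.

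Among the PRC2 core genes, the catalytic subunits did not pass the test in either line. EZH2 (chr7:148807257-148884321, minus strand of GRCh38, 20 exons in the canonical transcript) had 187 and 179 CPM in 6T-CEM controls and 176 and 179 with sh-LDB1. The J.gamma1 libraries had 228 and 221 in sh-NC, beside 232 and 232 with sh-LDB1. The groups lay side by side in both lines, the sh-LDB1 libraries just below the controls in 6T-CEM and just above them in J.gamma1. The log2 fold changes were -0.04 (95% interval -0.16 to 0.08, edgeR adjusted p = 0.616) and 0.05 (-0.05 to 0.15, adjusted p = 0.402).

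EZH1 (chr17:42700275-42745049, minus strand, 21 exons), the paralog that is known to prevail in cells that do not divide, had 23.0 and 21.2 CPM in 6T-CEM sh-NC and 24.7 and 22.5 with sh-LDB1. J.gamma1 had 27.3 and 30.03 in sh-NC, beside 31.0 and 30.1 with sh-LDB1. The 6T-CEM groups overlapped, and the J.gamma1 groups were apart by less than the spread of the controls. The log2 fold changes were 0.09 (-0.13 to 0.32, edgeR adjusted p = 0.544) and 0.09 (-0.10 to 0.28, adjusted p = 0.398). Within a library, the count of EZH2 was between 7.14 and 8.44 times that of EZH1 in all 8 libraries.

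EED (chr11:86201212-86278813, plus strand, 12 exons) binds the methylated histone tail and stimulates the enzyme. In 6T-CEM it had 26.5 and 26.8 CPM in sh-NC and 30.3 and 27.2 with sh-LDB1, and in J.gamma1 51.0 and 49.6 in sh-NC and 41.0 and 44.8 with sh-LDB1. Both J.gamma1 sh-LDB1 libraries were below both controls. The log2 fold change was 0.11 in 6T-CEM (-0.09 to 0.32, edgeR adjusted p = 0.408) and -0.23 ± 0.08 (SE) in J.gamma1 (adjusted p = 0.0254). The J.gamma1 call was not made by DESeq2 (adjusted p = 0.0719), nor in edgeR without sh-NC replicate 1 (0.0892) or without sh-LDB1 replicate 1 (0.167). The annotated exons of EED share 221 bases with a long noncoding RNA gene on the opposite strand and 66 bases with MIR6755, and the strand setting of the counting is not given in the sources used here.

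SUZ12 (chr17:31937007-32001038, plus strand, 16 exons), the scaffold on which PRC2 is assembled, had 199 and 194 CPM in 6T-CEM sh-NC, beside 216 and 197 with sh-LDB1. The J.gamma1 values were 221 and 206 in sh-NC, beside 197 and 189 with sh-LDB1. The 6T-CEM groups overlapped, whereas both J.gamma1 sh-LDB1 libraries were lower than both controls. The log2 fold change was 0.07 in 6T-CEM (-0.06 to 0.20, edgeR adjusted p = 0.407) and -0.14 ± 0.05 in J.gamma1 (adjusted p = 0.0396). The J.gamma1 call was lost in DESeq2 (0.0656), without the filter on low counts (0.0788), without sh-NC replicate 1 (0.269), without sh-LDB1 replicate 1 (0.0574) and without sh-LDB1 replicate 2 (0.179). The pseudogene SUZ12P1 had 329 to 489 counts, at most 8.892% of the count of SUZ12, and reads shared by the 2 genes could have been counted for either. EZH2P1 had at most 7 counts.

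Of the demethylases, only KDM6B passed the test. KDM6B (chr17:7834217-7854796, plus strand, 24 exons) had 31.4 and 35.4 CPM in 6T-CEM sh-NC and 57.7 and 59.9 with sh-LDB1. In J.gamma1 these were 89.6 and 88.5 in sh-NC and 157 and 148 with sh-LDB1. In each line both sh-LDB1 libraries were far above both controls. On the RPKM scale, the 6T-CEM sh-LDB1 libraries (9.02 and 9.31) stayed below the J.gamma1 controls (12.7 and 12.6). The log2 fold change was 0.82 ± 0.08 (SE) in 6T-CEM (0.64 to 0.99, edgeR adjusted p = 3.4e-06) and 0.78 ± 0.05 in J.gamma1 (0.66 to 0.89, adjusted p = 8.17e-07). It kept its call under every alternative test and normalization run at this threshold, and with 1 library left out its value stayed within 0.74 to 0.91 (6T-CEM) or 0.74 to 0.82 (J.gamma1). The change in J.gamma1 minus that in 6T-CEM was -0.04 (-0.24 to 0.16, adjusted p = 0.812). A change of this size or larger was uncommon in 6T-CEM, where 88.0% of genes tested had a smaller one, and less so in J.gamma1, with 75.3%.

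KDM6A (chrX:44873188-45112779, plus strand, 30 exons), which also belongs to the KMT2C and KMT2D complexes that mark enhancers, had 72.5 and 74.7 CPM in 6T-CEM sh-NC and 78.8 and 80.4 with sh-LDB1. J.gamma1 had 52.4 and 50.2 in sh-NC, beside 51.7 and 42.7 with sh-LDB1. The J.gamma1 groups overlapped and their lower value came from sh-LDB1 replicate 2. The log2 fold changes were 0.11 (-0.03 to 0.25, edgeR adjusted p = 0.217) and -0.12 (-0.33 to 0.09, adjusted p = 0.307), and without that library the J.gamma1 value was 0.01.

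The balance of the paralogs followed KDM6B. The ratio of KDM6B to KDM6A counts within a library was 0.433 and 0.473 in 6T-CEM sh-NC and 0.732 and 0.746 with sh-LDB1. In J.gamma1 it was 1.71 and 1.76 in sh-NC, beside 3.03 and 3.46 with sh-LDB1. These ratios need no scaling between libraries, and the groups did not overlap in either line. Per length of the canonical transcript KDM6B was below KDM6A in all 6T-CEM libraries (ratios 0.392 to 0.676) and above it in all J.gamma1 libraries (1.55 to 3.14), but with the union of exons it was above KDM6A in 6T-CEM too (1.62 to 2.80).

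**Figure D3:**
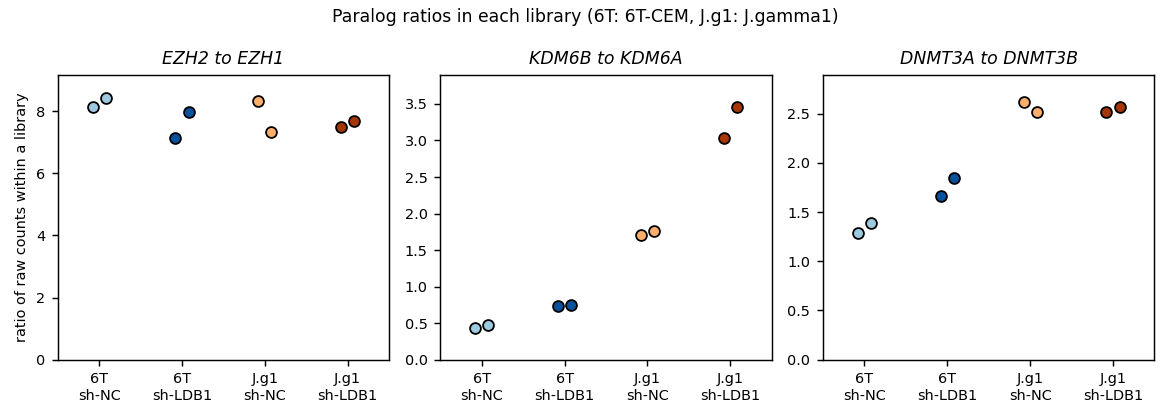
Ratio of raw counts of 2 paralogs within each library (vertical axes, from 0), with 1 point per library and 2 libraries per group. EZH2 to EZH1 lay between 7.14 and 8.44 in all libraries. KDM6B to KDM6A was higher with sh-LDB1 in both lines, and DNMT3A to DNMT3B was higher with sh-LDB1 in 6T-CEM, at 1.66 and 1.85 against 1.28 and 1.38.

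The promoters of the 3 genes that moved in both lines are shown so that their base composition and motifs can be read beside these changes. They are the 250 bases before a start site, from RefSeq on GRCh38.p14, which lists 17 such windows for 9 of the 10 genes. PHF6 is not among them. Both strands were searched for CAGNTG, an E-box bound by TAL1 and other bHLH factors, for AACNG, the MYB motif, for the GATA motif, an A or T before GATA and an A or G after it, for CCGGAAG, an ETS motif, and for TTTNNCGC, an E2F motif. CAGNTG and AACNG can overlap. Over all 34788 promoters, 42.5% held the E-box, 22.4% the GATA motif, 70.6% the MYB motif, 8.5% the ETS motif and 5.89% the E2F motif. Capitals mark matches of any of these motifs.

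KDM6B has a window at the canonical start (chr17:7833967-7834216, plus strand, 70.4% G or C), which held no match, and another 5700 bases downstream (chr17:7839667-7839916, plus strand, 50.4% G or C), which held 2 E-boxes and 2 MYB motifs, 1 of each overlapping. The sequences read 5′ to 3′ on the strand of the gene.
KDM6B canonical start: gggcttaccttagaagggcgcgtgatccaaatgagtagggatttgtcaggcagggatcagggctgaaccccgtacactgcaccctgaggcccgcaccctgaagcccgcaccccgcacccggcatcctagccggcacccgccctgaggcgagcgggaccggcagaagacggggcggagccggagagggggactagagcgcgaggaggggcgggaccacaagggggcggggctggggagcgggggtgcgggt
KDM6B downstream start: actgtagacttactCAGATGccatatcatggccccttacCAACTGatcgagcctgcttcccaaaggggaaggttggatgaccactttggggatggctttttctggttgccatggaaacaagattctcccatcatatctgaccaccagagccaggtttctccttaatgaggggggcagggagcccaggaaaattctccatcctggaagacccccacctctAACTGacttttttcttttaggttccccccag

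For DNMT3A the window at the canonical start (chr2:25341926-25342175, minus strand, 82.4% G or C) held 33 CpG dinucleotides and no match. It is 1 of 6 windows listed for DNMT3A, and 4 of the other 5 held a match, with the E-box in 3 and the MYB motif in 3. The window listed for DNMT3B (chr20:32779602-32779851, plus strand, 64% G or C) lies 17467 bases from the canonical start and held 3 CpG dinucleotides, 1 E-box and 2 MYB motifs.
DNMT3A canonical start: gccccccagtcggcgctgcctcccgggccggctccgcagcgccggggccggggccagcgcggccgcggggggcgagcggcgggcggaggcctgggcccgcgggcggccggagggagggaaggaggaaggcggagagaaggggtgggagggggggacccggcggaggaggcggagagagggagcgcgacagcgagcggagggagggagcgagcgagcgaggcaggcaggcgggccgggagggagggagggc
DNMT3B listed start: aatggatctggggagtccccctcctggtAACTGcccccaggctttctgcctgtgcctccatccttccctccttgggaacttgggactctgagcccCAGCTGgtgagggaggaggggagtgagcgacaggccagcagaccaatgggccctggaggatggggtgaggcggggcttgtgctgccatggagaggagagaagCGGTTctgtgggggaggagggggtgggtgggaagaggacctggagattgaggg

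Over the 17 windows the median G or C content was 71.6%, against 58% over all promoters, and 88.2% held 10 or more CpG dinucleotides, against 52.1%. Of these windows 6 are of DNMT3A, and some of them share bases, so that the 17 are not separate promoters. A match is a description of the letters and does not show a bound factor. With counts per gene, it is also not known from which start the RNA came.

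PHF6 (chrX:134373288-134428791, plus strand, 11 exons) had 126 and 121 CPM in 6T-CEM sh-NC, beside 125 and 119 with sh-LDB1. The J.gamma1 values were 185 and 179 in sh-NC, beside 153 and 147 with sh-LDB1. The 6T-CEM groups overlapped, and in J.gamma1 both sh-LDB1 libraries were below both controls. The log2 fold change was -0.01 in 6T-CEM (-0.14 to 0.12, edgeR adjusted p = 0.915) and -0.28 ± 0.05 in J.gamma1 (-0.39 to -0.17, adjusted p = 0.000736). The J.gamma1 call was kept in DESeq2 and without any 1 library, with values from -0.30 to -0.25. The difference between the lines was -0.27 ± 0.07 (adjusted p = 0.0164).

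DNMT3A (chr2:25227855-25342590, minus strand, 23 exons) and DNMT3B both fell with sh-LDB1 in both lines. DNMT3A had 96.3 and 104 CPM in 6T-CEM sh-NC and 74.1 and 73.9 with sh-LDB1, and 109 and 108 in J.gamma1 sh-NC against 93.4 and 88.3 with sh-LDB1. Both sh-LDB1 libraries were below both controls in each line. The log2 fold change was -0.43 ± 0.07 (SE) in 6T-CEM (-0.58 to -0.29, edgeR adjusted p = 0.000158) and -0.26 ± 0.05 in J.gamma1 (-0.38 to -0.14, adjusted p = 0.00235). Both calls were kept in DESeq2 and without any 1 library. The difference between the lines, 0.17 (-0.00068 to 0.35), did not pass the test (adjusted p = 0.142).

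DNMT3B (chr20:32762385-32809359, plus strand, 23 exons) had 75.1 and 74.9 CPM in 6T-CEM sh-NC and 44.7 and 40.0 with sh-LDB1. In J.gamma1 these were 41.8 and 42.8 in sh-NC, beside 37.2 and 34.4 with sh-LDB1. The groups did not overlap in either line. On the RPKM scale, the 6T-CEM sh-LDB1 libraries (10.8 and 9.63) came down close to the J.gamma1 controls (9.19 and 9.44). The log2 fold change was -0.82 ± 0.08 in 6T-CEM (-0.99 to -0.66, edgeR adjusted p = 1.42e-06) and -0.24 ± 0.08 in J.gamma1 (-0.41 to -0.07, adjusted p = 0.0219). The 6T-CEM call was kept under all alternatives at this threshold, with values from -0.91 to -0.75 when 1 library was left out. The J.gamma1 call was lost in DESeq2 (0.0785), without sh-NC replicate 2 (0.0748) and without sh-LDB1 replicate 2 (0.132). The fall was larger in 6T-CEM, by 0.58 ± 0.11 on the log2 scale (adjusted p = 0.00192), and this difference was called without any 1 of the 8 libraries.

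The ratio of DNMT3A to DNMT3B counts was 1.28 and 1.38 in 6T-CEM sh-NC and 1.66 and 1.85 with sh-LDB1. In J.gamma1 it was 2.62 and 2.52 in sh-NC and 2.51 and 2.56 with sh-LDB1, where the groups overlapped. KDM6B and DNMT3A changed places in 6T-CEM. Per length, KDM6B was at 5.21 RPKM and DNMT3A at 11.2 in sh-NC, and at 9.16 and 8.23 with sh-LDB1, with no overlap in either group and in the same order with the union of exons. In J.gamma1 KDM6B was already the higher in sh-NC.

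TET2 (chr4:105145875-105279816, plus strand, 11 exons) had 31.5 and 33.6 CPM in 6T-CEM sh-NC and 40.6 and 36.1 with sh-LDB1. J.gamma1 had 37.1 and 31.4 in sh-NC, beside 43.8 and 38.0 with sh-LDB1. The sh-LDB1 libraries were above the controls in both lines, but the replicates of a group also differed. The log2 fold changes were 0.24 (0.04 to 0.43, edgeR adjusted p = 0.0586) and 0.26 (0.03 to 0.48, adjusted p = 0.0563), and neither passed. Leaving out 6T-CEM sh-LDB1 replicate 2 brought the 6T-CEM value to an adjusted p of 0.0416, and leaving out J.gamma1 sh-NC replicate 1 or sh-LDB1 replicate 2 brought the J.gamma1 value to 0.00887 and 0.0287.

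**Figure D4:**
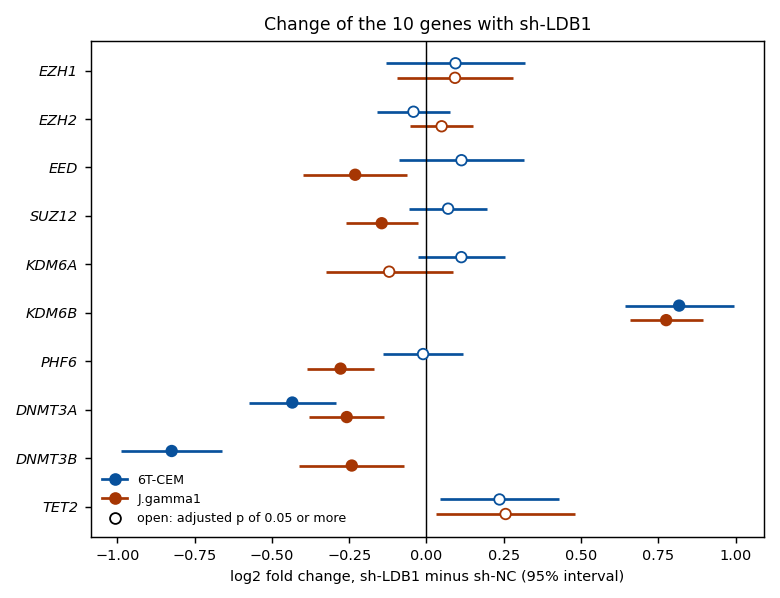
Log2 fold change of each gene, sh-LDB1 minus sh-NC (horizontal axis), in 6T-CEM and J.gamma1, with the 95% interval from the edgeR fit as a line. Filled points passed an adjusted p under 0.05. KDM6B stood at 0.82 and 0.78, DNMT3B at -0.82 and -0.24, and PHF6 at -0.01 and -0.28.

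The test of the difference between the lines called 3 of the 10 genes, where 24.4% of 18552 genes were called. These were DNMT3B and PHF6, given above, and EED, whose change in J.gamma1 was lower than in 6T-CEM by 0.35 ± 0.12 on the log2 scale (edgeR adjusted p = 0.0491). The EED difference was lost in DESeq2 (0.0848), without the filter on low counts (0.0676), and in 6 of the 8 fits that left out 1 library: either 6T-CEM sh-NC library, either sh-LDB1 replicate 1, or either J.gamma1 sh-NC library (0.0895 to 0.169). The PHF6 difference was lost without 6T-CEM sh-NC replicate 2 (0.0701), 6T-CEM sh-LDB1 replicate 1 (0.0641), J.gamma1 sh-NC replicate 1 (0.0637) or J.gamma1 sh-LDB1 replicate 2 (0.0584). SUZ12 was called for this difference in DESeq2 (-0.22, adjusted p = 0.044) and without 6T-CEM sh-LDB1 replicate 2 (-0.27, 0.0325), and KDM6A without J.gamma1 sh-LDB1 replicate 1 (-0.38, 0.0189).

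EED, SUZ12, PHF6, DNMT3A and DNMT3B were called lower in J.gamma1, where the 18 proliferation genes had a median log2 fold change of -0.36 with sh-LDB1 and a summed level there of 5164 to 5238 CPM, against 6782 to 6821 in sh-NC. In 6T-CEM that median was 0.01, between 6 genes called higher, such as CCNB1 (0.56), and 7 called lower, such as MCM2 (-0.49). There DNMT3A and DNMT3B were called lower as well, with log2 fold changes of -0.43 and -0.82, beside -0.26 and -0.24 in J.gamma1. The part of proliferation in these changes was not tested.

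A pairing site for the seed (bases 2 to 8) of an shRNA can lower a transcript other than its target. The 3′ UTRs of SUZ12 and DNMT3A each held 1 such site, GCACTTC of sh-LDB1#3 and TGACAAT of sh-LDB1#1, and those of PHF6 and DNMT3B each held 1 CATCTTT of sh-LDB1#2. EZH1, EZH2, EED, KDM6A, KDM6B and TET2 held no site. Of 19201 3′ UTRs, 9.94% held TGACAAT, 19% CATCTTT and 8.47% GCACTTC. Since the shRNA of the sequenced cells is not named, the part of such sites in the falls of these genes was not tested.

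The other PRC2 genes, listed as PRC2 accessory, moved in both directions. This list holds RBBP4 and RBBP7, which are subunits of the complex, beside genes that recruit or tune it. The counts of this and the next lists stand beside 15.1% of all genes called higher and 16.2% lower in 6T-CEM, and 25.0% and 26.5% in J.gamma1. Of 9 genes tested of the 10 in this list, 4 were called higher and 2 lower in 6T-CEM. In J.gamma1 2 were called higher and 4 lower, and the median log2 fold changes were 0.18 and -0.08. JARID2, which helps PRC2 to reach its targets, rose by 0.53 in 6T-CEM and 0.52 in J.gamma1, and PHF19, a reader of H3K36 methylation, by 0.43 and 0.22. MTF2, which binds CpG islands, fell by 0.28 and 0.48, and RBBP4, a histone chaperone subunit, by 0.19 and 0.56. PHF1 fell by 0.72 in J.gamma1 and was at 0.18, not called, in 6T-CEM.

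PRC1 ubiquitinates histone H2A, and some forms of it bind the mark that PRC2 leaves. Of 24 PRC1 genes, 6 were called higher and 4 lower in 6T-CEM and 7 higher and 6 lower in J.gamma1, with medians of 0.05 and 0.06. In 6T-CEM these were 25% higher and 16.7% lower, and in J.gamma1 29.2% and 25%, so that the shares lay near those of all genes, except the share called higher in 6T-CEM. CBX6, a reader of the mark, rose by 0.44 in 6T-CEM and 1.48 in J.gamma1, PHC3 by 0.46 and 0.34, RYBP by 0.23 and 0.49, and PCGF1 by 0.66 and 0.43. PCGF6 fell by 0.72 and 0.65, PHC1 by 0.44 and 0.89, and PHC2 by 0.28 and 0.62.

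Of the KMT2C and KMT2D complex, in which KDM6A sits, 8 of 9 genes listed were tested. In 6T-CEM 3 were called higher and 3 lower, and in J.gamma1 4 were called lower and 4 were not called. The methyltransferases KMT2C and KMT2D rose by 0.43 and 0.38 in 6T-CEM, and had log2 fold changes of 0.23 and 0.14, not called, in J.gamma1. NCOA6 fell by 0.38 in 6T-CEM and 0.72 in J.gamma1, and ASH2L by 0.29 and 0.66. Of 11 NuRD genes, which couple histone deacetylation with remodelling, 5 were called higher in each line, and 1 and 2 lower. HDAC1 rose by 0.25 and 0.46, CHD3 by 0.21 and 0.56 and MTA1 by 0.20 and 0.42, and MBD2 fell by 0.29 and 0.16. GATAD2B rose by 0.31 in 6T-CEM, and CHD4 fell by 0.25 in J.gamma1.

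Of 16 partners of DNA methylation tested of 17 listed, 3 were called higher and 5 lower in 6T-CEM, and 3 higher and 6 lower in J.gamma1, with medians of -0.12 and -0.13. DNMT1, which copies methylation after replication, had log2 fold changes of -0.13 and -0.12 and was not called in either line (edgeR adjusted p = 0.0744 and 0.0723). TET3, a paralog of TET2, rose by 0.49 and 0.65, and WT1, which can recruit TET2, by 0.27 and 1.86. IDH2, which makes the cofactor of TET and KDM6 enzymes, fell by 0.33 and 0.85, UHRF1, which guides DNMT1, by 0.16 and 0.35, and CDCA7, which acts with HELLS, by 0.42 and 0.16. HELLS, a remodeler needed for DNA methylation, fell by 0.80 in J.gamma1 and was at -0.11, not called, in 6T-CEM. TDG, which excises oxidised methylcytosine, rose by 0.85 in J.gamma1 and was at -0.03, not called, in 6T-CEM.

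Some of these calls rested on 1 library. Without 6T-CEM sh-NC replicate 1 the 6T-CEM calls of MTF2, CHD3, MTA1, GATAD2B, WT1, UHRF1 and E2F1 were lost (edgeR adjusted p 0.0501 to 0.204), and without sh-NC replicate 2 those of RBBP4, PHC2, HDAC1 and UHRF1 (0.0519 to 0.12). Without 6T-CEM sh-LDB1 replicate 1 those of RBBP4 and CHD3 were lost (0.0708 and 0.0764), and without sh-LDB1 replicate 2 those of PCGF1, PHC2, MTA1, WT1 and UHRF1 (0.0513 to 0.247). In J.gamma1 the calls of PHF19, MBD2 and CDCA7 were lost without sh-NC replicate 1 (0.0504, 0.154 and 0.212), that of PCGF1 without sh-NC replicate 2 (0.138), those of PCGF1, MBD2 and CDCA7 without sh-LDB1 replicate 1 (0.141, 0.108 and 0.0747), and those of MBD2 and CDCA7 without sh-LDB1 replicate 2 (0.08 and 0.0879). DESeq2 did not call PCGF1 (0.0674) and MBD2 (0.095) in J.gamma1, and without the filter on low counts CHD3, MTA1, WT1 and UHRF1 in 6T-CEM (0.0565 to 0.0927) and CDCA7 in J.gamma1 (0.0542) were not called.

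**Figure D5:**
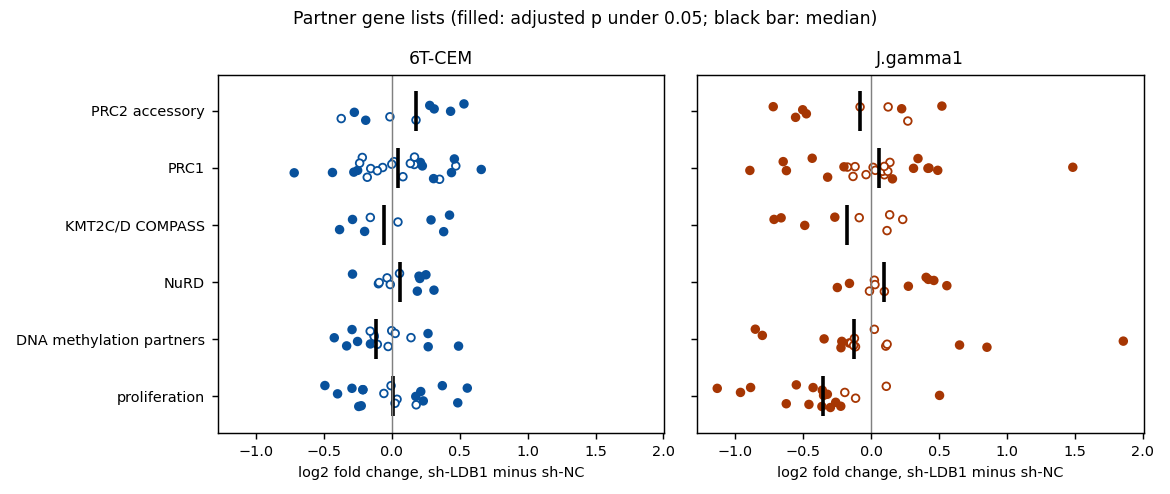
Log2 fold change, sh-LDB1 minus sh-NC (horizontal axes), of the genes tested in 6 lists, in 6T-CEM (left) and J.gamma1 (right). Filled points passed an edgeR adjusted p under 0.05 and black bars are list medians. The median of the proliferation list was 0.01 for 6T-CEM but -0.36 for J.gamma1.

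Genes whose levels ran most like those of the 10 were ranked by Pearson's r over the 8 libraries, after centring log2 CPM on the mean of each line, among 14902 genes. With 8 points that share the same libraries and groups, r is a description. KDM6B was most like JARID2 (r = 0.998), FBXW7 (0.997) and MOB3A (0.997), and FBXW7 had log2 fold changes of 1.09 and 1.12. DNMT3A was most like GATA3 (0.999), with -0.54 and -0.33, CCNE1 (0.994) and IRAG2 (0.994). DNMT3B was most like GXYLT2, B3GNT2 and MANBA (0.993 to 0.994), and PHF6 like HELLS, CRYL1 and ZFYVE16 (0.993 to 0.995). EZH2 was most like TMEM120B, SLC29A2 and GLO1 (0.953 to 0.994), EED like C8orf76, ZNF491 and MAP4K3 (0.971 to 0.99), and SUZ12 like ZNF808, PJA2 and ZNF684 (0.964 to 0.987). Among the nearest genes with a symbol were GOT1-DT for EZH1 (0.958), PBRM1 (0.983) and ALMS1 (0.965) for KDM6A, and BICRAL (0.978) for TET2, and 4 of the nearest entries had no symbol.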

How the data were processed

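RNA from cells of 2 lines with sh-NC or sh-LDB1 was measured in 8 libraries, 2 in each of 4 groups taken from the sample labels. The authors deposited whole-number counts per gene, 1 table per cell line, from 150 bp paired-end reads aligned to hg38 with HISAT2 2.2.0 and quantified with StringTie. The counts were not normalized and replicates were not pooled. The annotation release, the strand setting, the handling of reads that match several genes and the way coverage became counts are not given in the sources used here.

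Each line was fitted by itself with edgeR 4.0.16 in R 4.3.3 (quasi-likelihood test with robust fitting, TMM, filterByExpr, Benjamini-Hochberg adjustment over all genes tested), two-sided, and calls were made at an adjusted p under 0.05. The difference between the lines and the control level were tested in a fit to all 8 libraries. Standard errors were the size of the log2 fold change over the root of F. CPM used TMM factors within a line, and RPKM used those over 8 libraries and GENCODE release 44 lengths. Replicates correlated at r = 0.984 to 0.985 over log2 counts, and edgeR's biological coefficient of variation came to 9.68% (6T-CEM) and 9.16% (J.gamma1). Counts of replicates differed beyond sampling noise (chi-square per gene 7.04 to 11.7). The edgeR fit within a line was tested on simulated counts, and the other fits were not.

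The 10 genes and the lists were chosen with earlier results of these data known. Named were the 10 genes and LDB1, in each partner list up to 3 genes per direction called in both lines and up to 2 per direction and line, ranked by fold change, and the 3 genes most like each of the 10. Entries without a symbol are not named, and some genes that these rules select are not reported here. Alternatives were other size factors, no filter, DESeq2 1.42.0, a fit to all libraries, a replicate block, a fold threshold, summed counts of a symbol, and leaving out each library. Their use on the lists and LDB1 was chosen after seeing the data. No shared effect of the replicate number was seen (correlation of replicate differences -0.018 and -0.0357), which does not show whether the libraries were paired.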

Additional observations from a re-analysis of the deposited data

Results flagged for a closer look

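These results differed between the cell lines in the test of the difference itself, the change in J.gamma1 minus that in 6T-CEM on the log2 scale, at an edgeR adjusted p under 0.05 over 18552 genes. Of the 10 genes, DNMT3B differed by 0.5805 (adjusted p = 0.00192), PHF6 by -0.269 (0.0164) and EED by -0.346 (0.0491). LDB1 differed by 0.7044, having fallen further in 6T-CEM.

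The test called 3 of 9 PRC2 accessory genes, 3 of 24 PRC1 genes and 5 of 8 of the KMT2C and KMT2D complex. It called 6 of 11 NuRD genes, 5 of 16 partners of DNA methylation and 13 of 18 proliferation genes, against 24.4% of all genes. Only genes chosen by the naming rules are given here. Among the partner genes, larger rises or smaller falls in J.gamma1 were found for WT1 (1.586), CBX6 (1.043), TDG (0.8774), CHD3 (0.3485), CDCA7 (0.2596), MTA1 (0.2184) and HDAC1 (0.2083). Lower values in J.gamma1 were found for PHF1 (-0.901), HELLS (-0.6969), IDH2 (-0.5225), PHC1 (-0.4587), ASH2L (-0.3758), RBBP4 (-0.3665), PHC2 (-0.3471), NCOA6 (-0.3326) and CHD4 (-0.2165). Of the proliferation genes, E2F8 differed by -1.177, E2F1 by -0.8418 and CCNA2 by -0.3765. The differences of HDAC1, MTA1, CDCA7, CHD4, PHC2, NCOA6 and PHF1 missed the threshold in at least 1 fit that left out a library. With 2 libraries per group, no library could be called an outlier.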

How the results depend on the processing

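Of 440 values of the 10 genes recomputed under an alternative, 379 kept their direction and their side of the threshold, 35 lost a call, 9 gained one and 17 changed sign. KDM6B and DNMT3A in both lines, DNMT3B in 6T-CEM and PHF6 in J.gamma1 kept their calls in every alternative run at an adjusted p under 0.05. DESeq2 called 3 of the 10 genes in J.gamma1 in place of 6, without EED, SUZ12 and DNMT3B. With a log2 fold change beyond 1 required as well, 0 of the 10 were called in either line, since none had a change of that size, and the calls over all genes went from 5023 to 824 (6T-CEM) and from 8870 to 2386 (J.gamma1). Leaving out 1 library gave 3234 to 3875 genes called in 6T-CEM, where the lowest counts came without sh-NC replicate 1 (3234) and sh-NC replicate 2 (3339), and 1 to 4 of the 10 genes for the difference between the lines. That number was 1 without 6T-CEM sh-NC replicate 2, 6T-CEM sh-LDB1 replicate 1 or J.gamma1 sh-NC replicate 1. The causes were not tested.

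Signs changed only for values that were not called. Leaving out 1 library gave ranges of -0.044 to 0.023 for PHF6 in 6T-CEM and -0.26 to 0.013 for KDM6A in J.gamma1. For the difference between the lines it gave -0.12 to 0.048 for KDM6B, -0.076 to 0.075 for EZH1 and -0.098 to 0.14 for TET2. For the control level it gave -0.081 to 0.027 for DNMT3A, -0.069 to 0.033 for SUZ12 and -0.18 to 0.051 for TET2. KDM6A in J.gamma1 was called without sh-LDB1 replicate 1 (adjusted p = 0.0412).

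The replicate number as a term (replicate block) called 3 of the 10 genes for 6T-CEM and 7 for J.gamma1, where TET2 was added (log2 fold change 0.26, edgeR adjusted p = 0.0176). For the difference between the lines the block removed EED (0.0584) and added SUZ12 (-0.21, 0.0405), and for the control level it removed EZH1 (0.303). The block changed the sign of the control level of DNMT3A (0.026) and TET2 (0.013). Over all genes the block gave 5070 calls for 6T-CEM and 8785 for J.gamma1. For 872 values of the partner genes and LDB1, 69 lost a call and 0 changed sign, and of 176 list counts 32 moved by over 1.5 times.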

Other observations

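Within a library, the balance of the PRC2 core genes differed between the lines. The ratio of EZH2 to EED counts was 6.70 to 7.06 in 6T-CEM sh-NC and 4.45 to 4.46 in J.gamma1 sh-NC. With sh-LDB1 it was 5.81 to 6.58 in 6T-CEM and 5.17 to 5.67 in J.gamma1. The groups did not overlap in either line, and the ratio was lower with sh-LDB1 in 6T-CEM and higher in J.gamma1. A lack of overlap was common, since 65.1% of single genes showed it for 6T-CEM and 75.8% for J.gamma1. In 6T-CEM the nearest libraries of the groups were close, at 6.58 and 6.70. There neither EZH2 (edgeR adjusted p = 0.616) nor EED (0.408) was called, so the lower ratio in that line is not a shown change. The ratio of SUZ12 to EED counts was 7.27 to 7.53 in 6T-CEM sh-NC and 7.12 to 7.25 with sh-LDB1, and in J.gamma1 4.14 to 4.34 and 4.23 to 4.81, where the groups overlapped. These ratios are values with no test.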
